A study of Mus musculus with 6 samples.

Results

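Adherens junctions hold neighbouring epithelial cells together. The genes described here encode 4 classical cadherins (Cdh1, Cdh2, Cdh3 and Cdh11), 4 catenins (Ctnnb1, Jup, Ctnnd1 and Ctnna1) and 2 linkers to actin (Mllt4 and Vcl). These 10 genes were chosen by name as known proteins of the junction, not by their values, though earlier results of these data were known. They are among 43548 gene identifiers in the table, and each of the 10 symbols matched 1 row. Their mRNA was sequenced from a mouse cell line, Met-1 TripZ-200c, in 3 libraries without doxycycline (Minus Dox, vehicle diH2O) and 3 libraries with it (Plus Dox, 1 µg/mL), all taken at 48 h. Met-1 is a mammary carcinoma line from a late tumor of an MMTV-PyMT mouse of the FVB/nJ strain, in which a viral oncogene is driven by a mammary promoter. All 6 libraries come from 1 clone that carries a lentiviral pTripZ vector with an RFP tag. Dox switches on the precursor of miR-200c from this vector, and the cells were sorted for low leakage and for intermediate RFP. Libraries of cells with an empty vector were not analysed here, so an effect of Dox itself and an effect of miR-200c cannot be told apart.

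A cadherin spans the membrane and binds a cadherin on the next cell. Inside the cell its tail holds p120-catenin (Ctnnd1) near the membrane and either β-catenin (Ctnnb1) or plakoglobin (Jup) further along, and α-catenin (Ctnna1) joins that complex to actin with the help of vinculin (Vcl) and afadin (Mllt4, now named Afdn). In epithelial-to-mesenchymal transition (EMT), carcinoma cells often lose E-cadherin (Cdh1) and gain N-cadherin (Cdh2), which is known as cadherin switching. The miR-200 family lowers ZEB1 and ZEB2, repressors of the E-cadherin gene.

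The sequences below show which microRNA the vector adds and which letters it would pair with, and are RefSeq entries on GRCm38.p6. Capitals mark the seed, bases 2 to 8. Mature miR-200c lies at chr6:124718324-124718346 on the minus strand and has the same seed as miR-200b and miR-429, while miR-141 and miR-200a have another.
mmu-miR-200c-3p: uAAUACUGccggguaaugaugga
mmu-miR-200b-3p: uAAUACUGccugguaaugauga
mmu-miR-429-3p: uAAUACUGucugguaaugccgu
mmu-miR-141-3p: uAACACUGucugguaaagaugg
mmu-miR-200a-3p: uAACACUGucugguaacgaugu

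The letters that pair with the miR-200c seed, CAGTATT, were searched on the transcript strand in the longest annotated 3′ UTR of each of the 10 genes. Cdh11 had 1 match, 705 bases into its UTR, and the other 9 genes, E-cadherin and N-cadherin among them, had 0. The match overlaps no other hit, and it is printed below with its neighbours and the 7 paired letters in capitals. It lies at chr8:102633592-102633620 on the minus strand of GRCm38.
Cdh11 3′ UTR: catacaaatatCAGTATTctgacatgtac
Of all 21039 genes with an annotated 3′ UTR, 13.3% hold at least 1 such match. The share is 16.1% among the 10798 of them that averaged 1 FPKM or more, which leaves out Cdh11. For contrast, the 3′ UTR of Zeb2 on chromosome 2 holds 5 matches, the first 3 of which are shown in the order of the transcript.
Zeb2 3′ UTR, chr2:44988163-44988191: ctaccatacatCAGTATTttattattatt
Zeb2 3′ UTR, chr2:44988098-44988126: ctacagtgcatCAGTATTacgattcctca
Zeb2 3′ UTR, chr2:44987736-44987764: agcacccgtgtCAGTATTagacgactagg
A match is a string of letters in one annotated transcript and was not tested as a binding site.

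Values are FPKM, a read rate scaled to transcript length and to the mapped reads of the library, so levels of different genes can be set side by side. How many reads stand behind a value is not known, and only relative depth could be estimated from the lowest values, from 0.923 to 1.49 times that of Minus Dox 1. The genes of miR-200c and miR-141 (Mir200c and Mir141) are listed at 0 in all 6 libraries, as are 37 of 37 mitochondrial genes that every cell uses, so the induction itself could not be read from this table. Its known target Zeb2, a repressor of Cdh1, had 29.4, 30.7 and 27.9 FPKM in Minus Dox and 9.04, 7.82 and 8.004 FPKM in Plus Dox, lower wherever the label gives Dox. Among markers of other cell types, Cd3e, Emr1 and Adipoq are listed at 0, which in this table may also mean that a gene was not quantified. Ptprc, Pecam1 and Kdr were at or below 0.373 FPKM in every library, and the lysosomal gene Cd68 ranged from 6.31 to 11.3 FPKM (Minus Dox) and from 6.54 to 7.55 FPKM (Plus Dox). The mesenchymal gene Vim was abundant in all 6 libraries, at 3840 FPKM or more in Minus Dox and 3027 FPKM or more in Plus Dox, and was lower with Dox (log2 fold change -0.35, limma adjusted p = 5.66e-04). The matrix gene Fn1, another mesenchymal marker, did not pass (log2 fold change 0.06, limma adjusted p = 0.371). It was 265.9 and 260.5 FPKM in Minus Dox 1 and 2 and 276.3 and 272.3 FPKM in Plus Dox 1 and 2, and the fit left out the third library of each group, which holds a placeholder. In bulk RNA, fewer cells that express a gene and less of its RNA per cell cannot be told apart. The labels do not say whether the libraries of a group came from separate experiments, so the p-values measure only the spread among these libraries, which may be technical.

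With Dox, E-cadherin mRNA rose from near 0 to a low level, plakoglobin mRNA rose by 62.9%, and vinculin, afadin and α-catenin mRNA rose by 9.29% to 19.9%. N-cadherin, β-catenin and p120-catenin mRNA did not pass the test, nor did Cdh3 and Cdh11, which were close to 0 in both groups. In all, 5 of the 10 genes passed the limma test upward and 0 downward. Of the 7 genes that averaged 1 FPKM or more, 4 passed upward, beside 7.06% of all 12879 genes tested, and 0 passed downward, beside 7.97%. The fifth gene, Cdh1, was below that filter and was fitted without it, where 3.81% of 20513 genes passed upward. The median log2 fold change of the 7 genes was 0.13, and that of all genes tested was 0.0039.

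**Figure D1:**
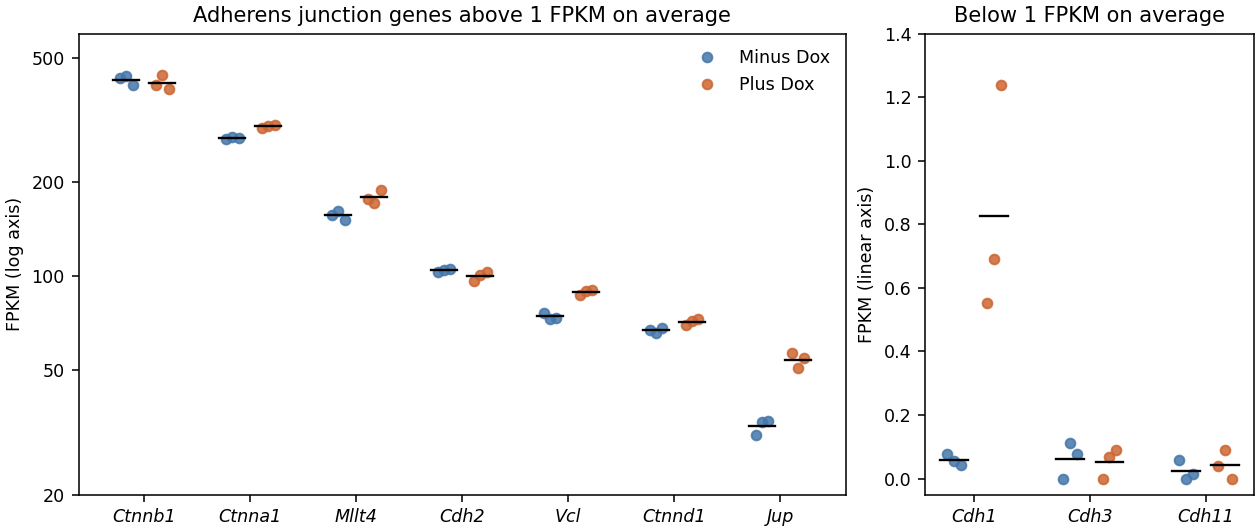
FPKM of the 10 adherens junction genes in each library, with Minus Dox in blue, Plus Dox in orange and a black bar at the mean of 3 libraries. The left axis is logarithmic and the right axis linear; Jup, Vcl, Mllt4, Ctnna1, Ctnnd1 and Cdh1 have all 3 Plus Dox points above the 3 Minus Dox points.

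The order of the levels among the abundant genes was the same in both groups. By mean FPKM it ran from Ctnnb1 through Ctnna1, Mllt4, Cdh2, Vcl and Ctnnd1 to Jup, and no 2 neighbours in this order had overlapping ranges in either group. Below them, Cdh3, Cdh1 and Cdh11 overlapped in Minus Dox. In Plus Dox, Cdh1 stood above Cdh3 and Cdh11 without overlap, and those last 2 overlapped each other. All 3 Plus Dox values lay above all 3 Minus Dox values for 6 of the 10 genes, as the plot of levels by library shows. Among the 7 genes above the filter this was so for 5, beside 17.4% of 12875 genes.

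The cadherins were examined first, since they define the switch. Cdh1 (ENSMUSG00000000303, GRCm38 chr8:106603351-106670246, plus strand) encodes E-cadherin, the cadherin of epithelia. Its level was 0.0776, 0.0559 and 0.0419 FPKM in Minus Dox 1 to 3 and 0.554, 0.692 and 1.24 FPKM in Plus Dox 1 to 3. The groups did not overlap, and Plus Dox 3 was the highest library. The mean went from 0.0585 ± 0.0180 FPKM (SD, n = 3) to 0.828 ± 0.361 FPKM (SD, n = 3), a ratio of means of 14.2. On the log2(FPKM + 0.1) scale, which understates the change of a gene this low, the fold change was 2.49 (standard error 0.357, 95% interval 1.62 to 3.36, limma adjusted p = 0.0125). Its size depends on the pseudocount, from 0.77 with a pseudocount of 1 to 3.56 with 0.01. The call held under 11 of 15 alternatives, with adjusted p up to 0.0983 in the unmoderated model on log2(FPKM + 1). It was lost without Minus Dox 2 (limma adjusted p = 0.0503) or Minus Dox 3 (adjusted p = 0.0505). For Cdh1, the alternatives with no filter and with a minimum of 5 FPKM repeat the reported fit. Those could not have changed the call.

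Cdh2 (ENSMUSG00000024304, chr18:16588877-16809246, minus strand) encodes N-cadherin, the cadherin of neural and mesenchymal cells. It was 103.3, 105.1 and 105.5 FPKM in Minus Dox and 96.6, 100.9 and 103.4 FPKM in Plus Dox. The groups overlapped by 1 library, since Plus Dox 3 lay above Minus Dox 1. The mean was 104.6 ± 1.16 FPKM in Minus Dox and 100.3 ± 3.43 FPKM in Plus Dox (SD, n = 3 each), which gave -0.06 on the log2 scale (standard error 0.0380, limma adjusted p = 0.342). The 95% interval of the fold ran from 0.901 to 1.02, and Cdh2 passed under 0 of 15 alternatives.

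Cdh3 (ENSMUSG00000061048, chr8:106510891-106557297, plus strand) encodes P-cadherin, found in basal epithelial cells. Its level was 0, 0.111 and 0.0783 FPKM in Minus Dox and 0, 0.0688 and 0.0910 FPKM in Plus Dox. Cdh11 (ENSMUSG00000031673, chr8:102632095-102785642, minus strand), a cadherin of mesenchymal cells, was 0.0579, 0 and 0.0148 FPKM in Minus Dox and 0.0398, 0.0910 and 0 FPKM in Plus Dox. Both genes had 0 in 1 library of each group and overlapped fully, so no difference was detectable at these levels (limma adjusted p = 0.939 for Cdh3 and 0.777 for Cdh11). The longest Cdh11 transcript shares stretches of at least 50 bases with 7 other genes, with up to 20.2% of its length in Gm3365, so reads given to Cdh11 are uncertain.

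To put both cadherins of the switch on one scale, the share of Cdh1 in the summed FPKM of the 4 cadherins was taken in each library. It was 0.0751%, 0.0531% and 0.0397% in Minus Dox and 0.570%, 0.680% and 1.18% in Plus Dox. The mean share was 0.0560% ± 0.0179 (SD, n = 3) and 0.810% ± 0.326 (SD, n = 3). The exact two-sided permutation test gave p = 0.1, the smallest that 3 libraries against 3 allow, and 0.15 after Benjamini-Hochberg adjustment over the 3 ratios tested. N-cadherin made up 99.9% of the cadherin FPKM without Dox and still 99.1% with it. The sum of the 4 cadherins was 104.8 ± 1.16 FPKM in Minus Dox and 101.2 ± 3.79 FPKM in Plus Dox (SD, n = 3 each). Per unit of Cdh1 FPKM there were on average 1909 units of Cdh2 in Minus Dox and 135 in Plus Dox. Cdh1 thus rose, and no change of Cdh2 passed the test.

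**Figure D2:**
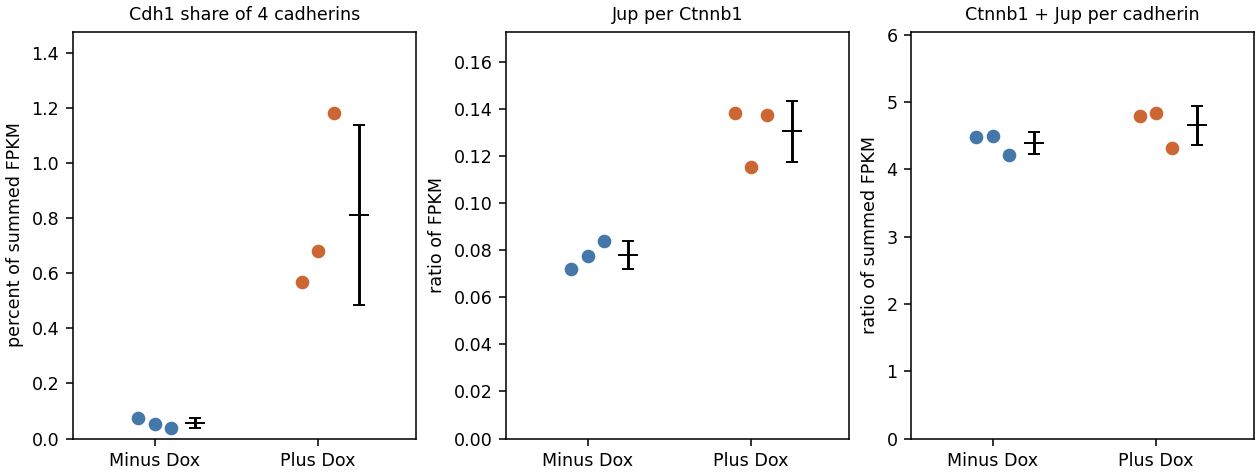
Ratios of FPKM in each library (Minus Dox blue, Plus Dox orange), with the mean and SD of 3 libraries in black and each axis starting at 0. The Cdh1 share of the 4 cadherins (left, percent) and the ratio of Jup to Ctnnb1 (middle) have all Plus Dox points above all Minus Dox points, while the ratio of Ctnnb1 plus Jup to the cadherins (right) overlaps.

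The catenins that bind the cadherin tail came next. Ctnnb1 (ENSMUSG00000006932, chr9:120929216-120960507, plus strand) encodes β-catenin, which also carries the Wnt signal to the nucleus. It was the most abundant of the 10 genes, at 432.5, 438.4 and 410.0 FPKM in Minus Dox and 409.2, 441.3 and 397.6 FPKM in Plus Dox. The highest and the lowest of the 6 values were both in Plus Dox. On the log2 scale the difference was -0.04 (standard error 0.0462, 95% interval -0.15 to 0.07, limma adjusted p = 0.642). The longest Ctnnb1 transcript overlaps Ulk4 on the opposite strand over part of its length, and Ulk4 stood at 1.03 to 2.06 FPKM.

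Jup (ENSMUSG00000001552, chr11:100368958-100397763, minus strand) encodes plakoglobin, also called γ-catenin, which can replace β-catenin on a cadherin and is a constituent of desmosomes as well. It was 31.1, 34.1 and 34.5 FPKM in Minus Dox and 56.6, 51.0 and 54.7 FPKM in Plus Dox. The lowest Plus Dox library stood well above the highest Minus Dox library. The mean went from 33.2 ± 1.82 FPKM (SD, n = 3) to 54.1 ± 2.86 FPKM (SD, n = 3), with a log2 fold change of 0.70 (standard error 0.0618, 95% interval 0.56 to 0.85, limma adjusted p = 6.51e-04). Jup passed under 15 of 15 alternatives, with an adjusted p of 0.0138 at most.

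The ratio of Jup to Ctnnb1 FPKM was 0.0720, 0.0777 and 0.0841 in Minus Dox and 0.138, 0.116 and 0.138 in Plus Dox. The groups did not overlap, and the means were 0.0779 ± 0.00605 and 0.131 ± 0.0129 (SD, n = 3 each, exact permutation p = 0.1, adjusted over 3 ratios 0.15). The summed FPKM of Ctnnb1 and Jup per cadherin FPKM was 4.39 ± 0.161 in Minus Dox and 4.65 ± 0.287 in Plus Dox (SD, n = 3 each). These ranges overlapped (exact permutation p = 0.3, adjusted 0.3). Plakoglobin mRNA therefore increased relative to β-catenin mRNA in each Plus Dox library, although 3 libraries a group cannot bring the exact test of the ratio below 0.1.

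Ctnnd1 (ENSMUSG00000034101, chr2:84600071-84650765, minus strand) encodes p120-catenin, which keeps cadherins at the membrane. It was 67.5, 65.9 and 68.3 FPKM in Minus Dox and 70.1, 71.8 and 72.8 FPKM in Plus Dox. The groups did not overlap, but the difference of 6.44% did not pass the test (log2 fold change 0.09, standard error 0.0378, limma adjusted p = 0.168). The longest Ctnnd1 transcript shares 70.5% of its length with Gm28635 on the same strand, and that gene was listed at practically 0 in all 6 libraries. How reads of the shared stretch were divided between these genes is not known, so the level of Ctnnd1 is uncertain to that extent.

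The links to actin rose by small amounts. Ctnna1 (ENSMUSG00000037815, chr18:35118859-35254779, plus strand) encodes αE-catenin, which binds β-catenin or plakoglobin on one side and actin on the other. It was 275.3, 278.7 and 278.0 FPKM in Minus Dox and 299.5, 303.9 and 305.8 FPKM in Plus Dox. The libraries of each group lay within a few FPKM of each other, and the groups were well apart. The log2 fold change was 0.13 (standard error 0.0256, 95% interval 0.07 to 0.19, limma adjusted p = 0.0175). The adjusted p was 0.0585 without Minus Dox 1, 0.0541 without Minus Dox 2, 0.0514 without Plus Dox 2 and 0.0741 without Plus Dox 3.

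Vcl (ENSMUSG00000021823, chr14:20929398-21033676, plus strand) encodes vinculin, which α-catenin recruits when the junction is under tension and which also sits in focal adhesions. Its level was 76.6, 73.1 and 73.6 FPKM in Minus Dox and 87.3, 89.8 and 90.5 FPKM in Plus Dox. The groups did not overlap, and the mean went from 74.4 ± 1.90 to 89.2 ± 1.68 FPKM (SD, n = 3 each). The log2 fold change was 0.26 (standard error 0.0379, 95% interval 0.17 to 0.35, limma adjusted p = 0.00519), and the call held under 15 of 15 alternatives. Vcl overlaps Ap3m1 on the opposite strand over 39.8% of its longest transcript. Ap3m1 stood at 40.8 to 42.4 FPKM in Minus Dox and 40.6 to 41.2 FPKM in Plus Dox and did not pass the test (log2 fold change -0.03, limma adjusted p = 0.673).

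Mllt4 (ENSMUSG00000068036, chr17:13760539-13906150, plus strand) encodes afadin, which ties nectins and α-catenin to actin. It was 157.0, 161.5 and 152.0 FPKM in Minus Dox and 177.3, 171.5 and 188.8 FPKM in Plus Dox. The groups did not overlap, with a log2 fold change of 0.19 (standard error 0.0451, 95% interval 0.09 to 0.30, limma adjusted p = 0.0315). This was the least firm of the 5 calls: it held under 5 of 15 alternatives, was lost without the filter on low values (adjusted p = 0.0564), and was lost on leaving out any library other than Plus Dox 2, with adjusted p up to 0.0908. The longest Mllt4 transcript shares 12.9% of its length with Zfp160, which was 10.2 to 10.8 FPKM in Minus Dox and 8.39 to 10.3 FPKM in Plus Dox.

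**Figure D3:**
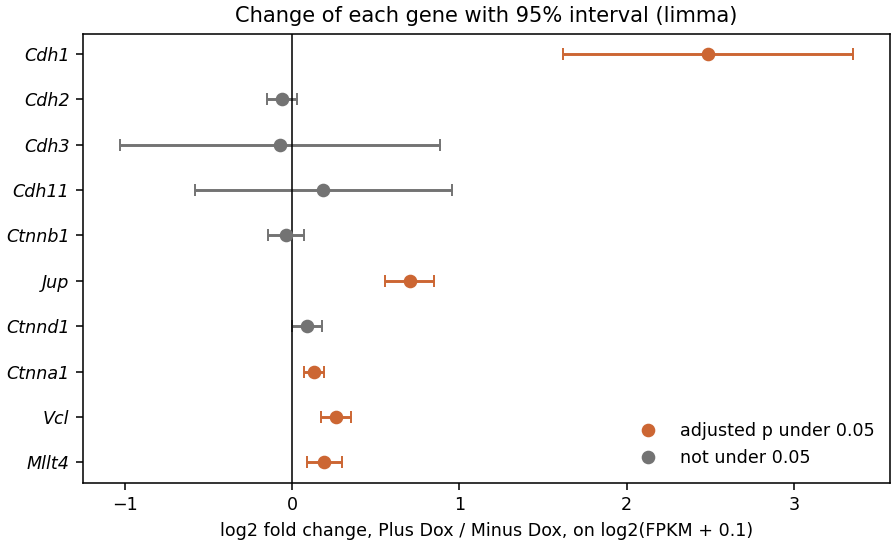
Log2 fold change of each of the 10 genes (Plus Dox over Minus Dox, on log2(FPKM + 0.1)) with its 95% interval from limma, in orange where the adjusted p was under 0.05 and in grey otherwise. Cdh1 lies at 2.49 with a wide interval, Jup at 0.70, and Vcl, Mllt4 and Ctnna1 between 0.13 and 0.26, while the intervals of Cdh2 and Ctnnb1 are narrow and hold 0.

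The plot of changes shows narrow intervals for the 7 genes above the filter, so that a difference of 9.29% passed the test for Ctnna1. The intervals were wide for the 3 genes below it, and those of Cdh3 and Cdh11 reached from -1.03 to 0.88 and from -0.58 to 0.95.

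**Figure D4:**
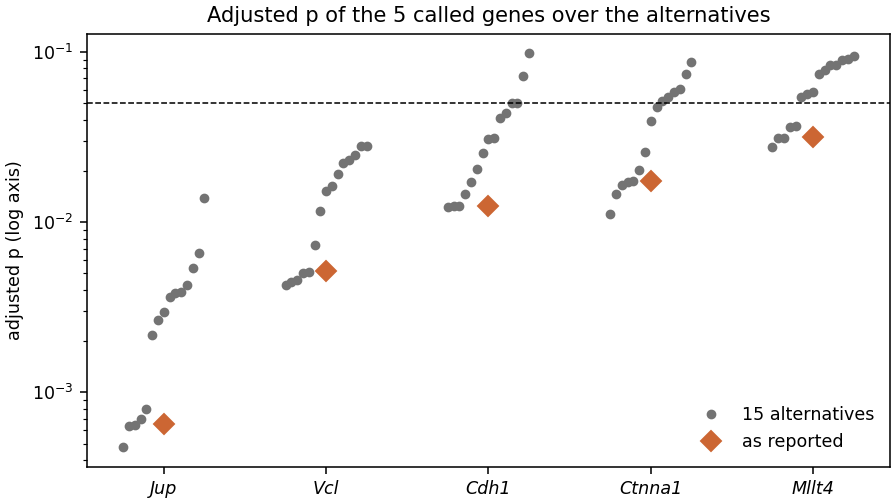
Adjusted p of the 5 genes that passed the test, as reported (orange diamonds) and under each of 15 alternatives (grey points, sorted), on a logarithmic axis with a dashed line at 0.05. All points of Jup and Vcl lie under the line, while Cdh1 has 4, Ctnna1 6 and Mllt4 10 points above it.

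As the plot of adjusted p over the alternatives shows, the calls fall into those of Jup and Vcl, which never crossed the threshold, and those of Cdh1, Ctnna1 and Mllt4, which did. All 5 genes kept a positive fold change under every one of the 15 alternatives. Every Plus Dox value of these genes lay above every Minus Dox value. Leaving out a library, or another pseudocount, filter or model, therefore could not have turned the sign. For Jup the log2 fold change ranged from 0.66 to 0.74, for Vcl from 0.25 to 0.28, for Ctnna1 from 0.12 to 0.14 and for Mllt4 from 0.15 to 0.22.

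Other genes of the junction were read from lists chosen by function. Their counts stand beside 7.06% of all genes tested that rose and 7.97% that fell. Of 15 further classical and type II cadherins, 14 were in the table, 10 of them listed at 0 in every library. Only Cdh5 (VE-cadherin, of endothelium) and Cdh24 reached the filter, and neither passed. Cdh5 was 3.95 to 4.66 FPKM over the 6 libraries, and Cdh24 was 5.37 to 5.78 FPKM in Minus Dox and 6.68 to 7.21 FPKM in Plus Dox (limma adjusted p = 0.0837). Among the cadherins listed, Cdh2 alone was above 10 FPKM in any library.

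Of 6 further catenins and relatives of p120-catenin, 3 were tested and all 3 rose. Ctnnal1 (α-catulin) had a log2 fold change of 0.32 (limma adjusted p = 0.00692), from 49.3, 53.0 and 50.8 FPKM to 62.5, 66.9 and 61.9 FPKM. Pkp4 (p0071, an armadillo protein of junctions) rose by 0.31 on the log2 scale (adjusted p = 0.0162). Arvcf, which binds the same cadherin segment as p120-catenin, had 0.53 (adjusted p = 0.0448), and its call held only without Plus Dox 1 when libraries were left out in turn. The closest relative of Ctnna1 in neurons, Ctnna2, is listed at 0 throughout.

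Nectins form a second adhesion system that afadin anchors. Of 10 listed nectins and relatives 6 were in the table under the names used, 5 were tested, 0 rose and 1 fell. Pvrl2 (nectin-2) went from 52.9, 54.4 and 50.4 FPKM to 48.2, 43.7 and 45.2 FPKM (log2 fold change -0.20, limma adjusted p = 0.0475). Its call was lost on leaving out any library but Plus Dox 1, with adjusted p up to 0.137. Pvrl1 (nectin-1) had -0.22 and Cadm1 -0.13, neither of which passed (adjusted p = 0.0582 and 0.0808). Pvr (0.16) and Pvrl3 (0.05) had positive changes and did not pass either (limma adjusted p = 0.164 and 0.770). The median log2 fold change of the 5 was -0.13.

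Of 18 actin linkers and scaffolds of the junction, 17 were in the table and tested, 6 rose and 0 fell, with a median log2 fold change of 0.10. Plekha7, which binds p120-catenin and tethers microtubules, rose from 2.74, 2.21 and 2.81 FPKM to 5.30, 4.47 and 4.84 FPKM (log2 fold change 0.89, limma adjusted p = 0.0105). Actn4 (α-actinin-4, an actin crosslinker) rose by 0.55 on the log2 scale (adjusted p = 4.48e-05). Ajuba, a LIM protein that binds α-catenin, rose by 0.42 (adjusted p = 3.94e-04), and Ssx2ip (an afadin and α-actinin binder) by 0.34 (adjusted p = 0.00383). Vasp and Actn1 were the other 2, at 0.17 and 0.14, and both calls were lost without Plus Dox 3 (adjusted p = 0.0548 for Vasp), that of Actn1 also without Minus Dox 2 (adjusted p up to 0.0575). Zyx, which gathers at strained actin, had -0.13 and did not pass (adjusted p = 0.0513).

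Of 15 genes of cadherin turnover, cleavage and phosphorylation, 13 were tested, 4 rose and 1 fell, with a median log2 fold change of 0.12. The single fall is close to the 7.97% of all genes tested that fell. Src, a kinase that phosphorylates junction proteins, rose by 0.90 on the log2 scale, from 81.3, 91.8 and 79.9 FPKM to 152.4, 159.6 and 157.9 FPKM (limma adjusted p = 2.01e-04). Its relative Fyn fell by 0.27 (adjusted p = 0.0163), a call lost without Plus Dox 1 or Plus Dox 2 (adjusted p up to 0.0553). Ptprk, a phosphatase that acts on β-catenin, rose by 0.26 (adjusted p = 0.00646). Yes1 (0.25) and Met (0.22) passed with adjusted p of 0.0420 and 0.0422, but Yes1 did not pass on leaving out any library, and Met passed only without Minus Dox 1. The sheddase Adam10 and the ubiquitin ligase Cbll1, which acts on E-cadherin, did not pass (limma adjusted p = 0.489 and 0.569).

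Plakoglobin is shared with desmosomes, so their genes were set beside it. Of 14 listed desmosome genes 4 reached the filter and all 4 rose, with a median log2 fold change of 0.74. These were the plakophilins Pkp1 (1.26, limma adjusted p = 0.00722), Pkp3 (0.96, adjusted p = 0.0177) and Pkp2 (0.53, adjusted p = 0.00120), which bind desmosomal cadherins, and Perp (0.50, adjusted p = 8.70e-04), a membrane protein of desmosomes. The call of Pkp3 was lost without Minus Dox 3, Plus Dox 2 or Plus Dox 3 (adjusted p up to 0.0636). Among the desmosomal cadherins, Dsg2 went from 0, 0.0602 and 0.0106 FPKM to 0.841, 0.657 and 1.13 FPKM, with a log2 fold change of 2.98 in the fit without the filter (adjusted p = 0.00550). Dsg2 and Cdh1 thus both stood near 0 in Minus Dox and between 0.554 and 1.24 FPKM in Plus Dox. Desmoplakin (Dsp), which links desmosomes to keratin, stayed between 0.0413 and 0.117 FPKM and did not pass (adjusted p = 0.609).

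In the plot of the other junction genes, the called genes of the catenin, linker and desmosome lists all lie to the right of 0, and the 1 called nectin lies to the left. No test compared the lists with each other.

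Repressors that are known to bind the Cdh1 promoter were listed as well. Of 10 such genes 8 were tested, 0 rose and 4 fell, with a median log2 fold change of -0.21. Zeb2 had -1.81 (limma adjusted p = 4.48e-05) and Zeb1 -0.98 (adjusted p = 3.62e-04), from 41.0, 42.1 and 42.3 FPKM to 19.8, 20.3 and 23.6 FPKM. Both have 5 matches to the miR-200c seed in the 3′ UTR. Twist1 had -0.25 (adjusted p = 0.00862) and 0 matches. Snai1 had -0.28 (adjusted p = 0.0301) and 1 match, and its call held only without Minus Dox 1 when libraries were left out (adjusted p up to 0.0953). Tcf3 (-0.16, adjusted p = 0.0527), Tcf4 (-0.16, adjusted p = 0.273), Klf8 (0.46, adjusted p = 0.0915) and Snai2 (0.53, adjusted p = 0.219) did not pass. Twist2 and Gsc are listed at 0 FPKM. Snai2 and Tcf4 have 1 seed match each, and Tcf3, Klf8, Twist2 and Gsc have 0. Zeb1 was thus still at 19.8 FPKM or more in every Plus Dox library.

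Several of these repressors, Zeb1 and Zeb2 among them, bind E-boxes. The letters CACCTG, or CAGGTG on the other strand, were searched in the 250 bases before the annotated start of the genes with a RefSeq promoter entry, which were Ctnnb1, Jup, Ctnnd1, Vcl and Mllt4. There were 0 matches in these 5 genes, and 17.2% of 32851 promoters of the same length have at least 1. This says only that the letters are not in that window of these 5 genes. Cdh1, Cdh2, Cdh3, Cdh11 and Ctnna1 had no such entry, so the Cdh1 promoter itself was not searched.

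The rise of Cdh1 stood beside that of other epithelial genes. Of 13 epithelial markers 5 reached the filter, Epcam only through its level in Plus Dox, and the other 4 rose. Krt7 (2.60, limma adjusted p = 8.85e-07) and Krt18 (2.05, adjusted p = 3.61e-06), keratins of simple epithelia, rose in all Plus Dox libraries, and the splicing factor Esrp2 rose by 1.06 (adjusted p = 0.00402). Epcam, an epithelial adhesion molecule, went from 0.0844, 0.137 and 0.161 FPKM to 4.31, 3.88 and 3.98 FPKM. Cldn3 had 0.15 (adjusted p = 0.0342), lost on leaving out any library but Plus Dox 1. Krt5 and Krt19 are listed at 0, and Ocln, below the filter, had 2.17 (adjusted p = 0.0310), which held only without Minus Dox 1 when libraries were left out. Krt8, Krt14, Cldn4, Cldn7 and Esrp1, also below the filter, did not pass. Their limma adjusted p ran from 0.0785 (Esrp1) to 0.733 (Cldn7).

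By the pattern over the 6 libraries, the genes most like Cdh1 were Ralgapa2 (r = 0.998), Tbc1d14 (r = 0.995) and Kremen1 (r = 0.995), with r taken as the Pearson correlation of log2(FPKM + 0.1). For Jup they were Prkaa2 (r = 0.998), Tuba4a (r = 0.997) and Plekhh1 (r = 0.997). Since the 6 points fall into 2 groups, any gene that differs between the groups scores high: 365 of 12875 genes had r above 0.95 with Cdh1 and 414 of 12874 with Jup. Ralgapa2 shared with Cdh1 its highest value in Plus Dox 3, at 7.29 FPKM against 6.06 and 6.44 in the other two.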

How the data were processed

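Libraries of mRNA from Met-1 TripZ-200c cells, 3 Minus Dox and 3 Plus Dox, were grouped by the sample labels. The authors mapped single reads of a stranded kit with gSNAP, estimated expression with Cufflinks (builds GRCm38.p6 and FVB_NJ_v1; versions are not given in the sources used here) and deposited FPKM per gene and library. Whether strand was used in counting is not given. FPKM removes depth, so read numbers are unknown. The deposited p-values, q-values, fold changes and mean columns, of the authors' own comparison, were not used; 0 other per-sample columns were left unused.

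Of 43611 rows, 63 with a repeated identifier were dropped in favour of the one with the larger mean, and the placeholder 999999999, in 6 cells of 4 genes, was set to missing. Genes that averaged 1 FPKM or more were fitted by limma 3.58.1 under R 4.3.3 (trend, group only) on the scale log2(FPKM + 0.1), with two-sided p-values adjusted by Benjamini-Hochberg over all genes tested and a threshold of 0.05. Cdh1, Cdh3 and Cdh11, and other named genes below that mean, came from the same model without the filter. Ratios were compared by exact permutation. Positions and 3′ UTRs are from GENCODE M21, and shared sequence was found with BLAST 2.17.0 (95% identity over at least 50 bases). The model was tested on simulated data.

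The genes and lists were chosen with earlier results of these data known. Named were all 10 genes, up to 4 rises and 4 falls per list among those that passed, every repressor above the filter, and the 3 genes most like Cdh1 and Jup. Other genes named, with those at 0 or not passing, were chosen after their values were seen. Some listed genes that count in the lists are not reported here by name. Alternatives were other pseudocounts (1, 0.01), filters (none, 5 FPKM), scalings (quantile, median), models (no trend, unmoderated), a replicate block and leaving out each library.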

Additional observations from a re-analysis of the deposited data

How the results depend on the processing

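Of the 10 junction genes, 5 were called as reported, and 5 with a pseudocount of 1 or 0.01, a minimum of 5 FPKM or median scaling, 4 without the filter or with quantile normalization, 3 without the trend, 3 with the unmoderated model on log2(FPKM + 1) and 2 to 4 with each library left out. Among all genes, 1935 were called as reported, 1290 with the unmoderated model and 1069 to 1384 with each library left out, where fewer samples enter the fit. The replicate numbers are shared by the groups, but the deviations of same-numbered libraries correlated little (r = 0.03, 0.04 and -0.01). Replicates 1 and 2 of each group correlated best with their own number, and replicate 3 of neither group did. The libraries were not taken as pairs. With a replicate block, 2 of the 10 genes (Jup and Vcl) and 1337 genes in all were called, and the adjusted p was 0.0721 for Cdh1, 0.0606 for Ctnna1 and 0.0834 for Mllt4. The fold change of Cdh3 (-0.07) reversed without Minus Dox 2 (0.15), Minus Dox 3 (0.02) or Plus Dox 1 (0.21) and ranged from -0.39 to 0.21 over the libraries left out. That of Cdh11 (0.19) reversed without Plus Dox 2 (-0.044) and ranged from -0.044 to 0.42, and neither gene passed the threshold in any of these fits. With each library left out, the difference in Cdh1 share ranged from 0.569 to 0.875 percentage points, that in the ratio of Jup to Ctnnb1 from 0.0487 to 0.0601, and that in Ctnnb1 plus Jup per cadherin from 0.163 to 0.421. The median shift of all genes was at most 0.01 under each scaling. Depth limits Cdh1, Cdh3 and Cdh11, whose read numbers are unknown. Other causes of these changes were not tested.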
